A study of Komagataella pastoris with 6 samples.

Results

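The genes with at least a 4-fold lower RNA level in the flocculating strain KM71-ScFlo1-LpDLDH than in the control strain KM71-LpDLDH are described here. They were chosen from read counts by a rule on CPM, the count of a gene divided by the total count of its library and scaled to a fixed library size. A gene was a member if it had at least 60 reads summed over the 6 libraries and if the mean CPM of KM71-ScFlo1-LpDLDH plus 0.5, divided by the mean CPM of KM71-LpDLDH plus 0.5, was at most 0.25. The ratio was met by 75 of the 5029 genes with at least 60 reads (1.49%). The rule also leaves out 5 named identifiers, of which 3 were among these 75, so 72 members remained. Because the level in all 6 libraries chose the members, the difference between the strains is given as a description without a test.

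Both strains were built from Pichia pastoris KM71 and express LpDLDH, a d-lactate dehydrogenase from Leuconostoc pseudomesenteroides, from the constitutive GAP promoter. KM71-ScFlo1-LpDLDH (3 cultures) also expresses ScFLO1 of Saccharomyces cerevisiae from the GAP promoter, and KM71-LpDLDH (3 cultures) does not. All cultures were grown in MGYH, inoculated to an OD600 of 0.05, shaken at 250 rpm and 30 °C, and harvested in the mid-exponential phase after about 21 h. The strains therefore differ at least in ScFLO1 and in the plasmid that carries it, including its HIS4 selection marker. Per the paper, LpDLDH was put into KM71-ScFlo1 to make the flocculating strain. KM71-LpDLDH lacks ScFLO1, so its LpDLDH came from a separate transformation. The insertion site and copy number of LpDLDH may differ between the strains as well, which was not tested. The effects of all these differences cannot be told apart. How many transformants of each strain were sequenced is not given in the sources used here.

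FLO1 encodes a flocculin, a large cell wall protein whose lectin-like domain binds mannose chains on the surface of other cells. Cell-to-cell binding of this kind underlies flocculation, a trait used in brewing to remove yeast at the end of a fermentation. d-lactate dehydrogenase reduces pyruvate to d-lactate and oxidises NADH. The identifiers of the members are locus names of the P. pastoris GS115 genome, with a chromosome prefix and a number. None of the 72 was paired with a gene name or product in the sources used here (0 of 72), so the members are described by level, spread and number, and no function is given to them.

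The libraries held between 10386352 and 12494758 reads on genes in KM71-ScFlo1-LpDLDH and between 12127429 and 12767753 in KM71-LpDLDH. The counts of 2 replicates of a strain never differed by counting error alone (chi-square over degrees of freedom 11.9 to 68.1). All 6 libraries were kept as separate replicates.

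The members gave far fewer of the reads in the flocculating strain. They held 0.875%, 0.904% and 0.876% of the reads in replicates 1, 2 and 3 of KM71-ScFlo1-LpDLDH, against 5.81%, 5.43% and 5.74% in replicates 1, 2 and 3 of KM71-LpDLDH. The means were 0.885% ± 0.0164 in KM71-ScFlo1-LpDLDH and 5.66% ± 0.200 in KM71-LpDLDH (SD, n = 3 each). The difference was 4.78 percentage points, which is 84.4% of the share that the members had in KM71-LpDLDH, and the summed level was 6.40-fold higher in KM71-LpDLDH. The range of each strain was narrow. The members were chosen by a gap of at least 4-fold in these same libraries, so the gap carries no further evidence. In RNA from whole cultures, less RNA in every cell and fewer cells with the RNA cannot be told apart.

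**Figure D1:**
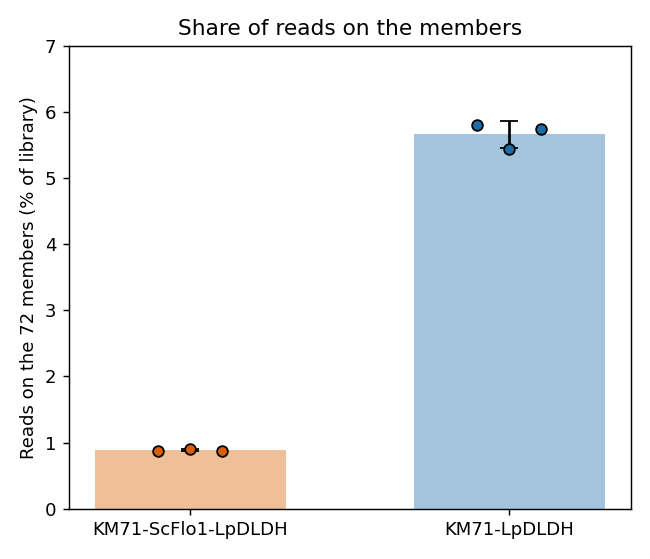
Share of the reads of a library that fell on the 72 members, in percent. Bars are the means, error bars the SD and points the 3 libraries of each strain. The KM71-ScFlo1-LpDLDH libraries lie between 0.875% and 0.904%, and the KM71-LpDLDH libraries between 5.43% and 5.81%.

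The lower share was spread over many genes. The 10 members with the highest level in KM71-LpDLDH took 0.408% ± 0.0153 of the reads in KM71-ScFlo1-LpDLDH and 2.60% ± 0.123 in KM71-LpDLDH (SD, n = 3 each). These 10 accounted for 46.0% of the members' CPM in KM71-LpDLDH and for 46.0% of the CPM that was missing in KM71-ScFlo1-LpDLDH. The remaining 62 members gave the rest. The median member had 72.2, 72.2 and 69.8 CPM in the libraries of KM71-ScFlo1-LpDLDH, against 465, 405 and 494 CPM in those of KM71-LpDLDH. Over the 5029 genes the median level was 89.4 CPM in KM71-ScFlo1-LpDLDH and 83.8 CPM in KM71-LpDLDH.

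Most members were abundant in the control strain. The mean level of a member lay between 0.231 and 686 CPM in KM71-ScFlo1-LpDLDH (median 70.7) and between 6.16 and 3711 CPM in KM71-LpDLDH (median 457). No member averaged 1000 CPM or more in KM71-ScFlo1-LpDLDH (0 of 72), while 17 did in KM71-LpDLDH, where 145 of the 5029 genes reached that level. Of the 100 most abundant genes of a strain, 0 were members in KM71-ScFlo1-LpDLDH and 14 in KM71-LpDLDH. Of the 500 most abundant, 6 were members in KM71-ScFlo1-LpDLDH and 38 in KM71-LpDLDH. The median member stood at percentile 40.8 of all genes in KM71-ScFlo1-LpDLDH and at percentile 91.6 in KM71-LpDLDH. In KM71-ScFlo1-LpDLDH 28 members lay above the median of all genes and 29 below the 25th percentile, and in KM71-LpDLDH 65 lay above the median. CPM is not divided by gene length, so these ranks compare read shares and not molecules. The rule itself favours genes that are high in KM71-LpDLDH, so the ranks follow in part from the selection. The 90 genes at least 4-fold higher in KM71-ScFlo1-LpDLDH showed the reverse, with medians of 149 CPM there and 26.4 CPM in KM71-LpDLDH.

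**Figure D2:**
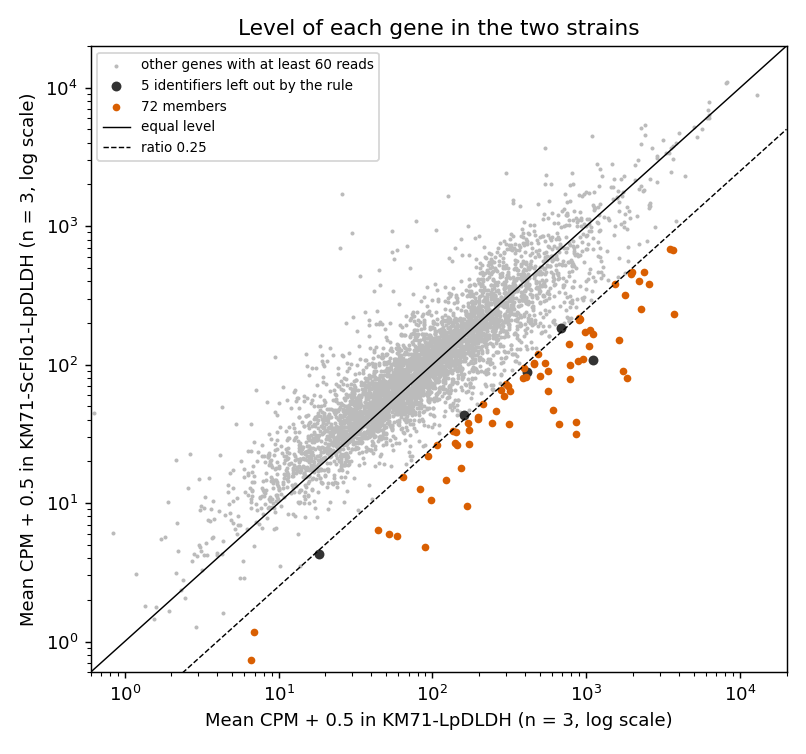
Mean CPM plus 0.5 of each gene in KM71-ScFlo1-LpDLDH (vertical axis) and in KM71-LpDLDH (horizontal axis), both on log scales, with the 72 members in orange and the 5 identifiers that were left out in black. Members lie on or below the dashed line of a ratio of 0.25 and reach 3711 CPM in KM71-LpDLDH, while none passes 686 CPM in KM71-ScFlo1-LpDLDH.

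The residual level, which is the mean CPM in KM71-ScFlo1-LpDLDH as a percentage of that in KM71-LpDLDH, ranged from 3.63% to 24.8% with a median of 17.8%. The members thus lost between 75.2% and 96.4% of their control level, with a median loss of 82.2%. The residual level was at most 5% for 5 members and at most 10% for 13. Another 15 kept between 10% and 15%, 20 kept between 15% and 20%, and 24 kept between 20% and 25%. The largest group therefore sat just inside the threshold. Across the members, the Spearman correlation of the residual level with the control level was -0.03, where both use the KM71-LpDLDH libraries and genes are not independent replicates. Members with small and with large residual levels were found among weakly and strongly expressed genes.

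For all 72 members the highest KM71-ScFlo1-LpDLDH library was below the lowest KM71-LpDLDH library, which held for 27.6% of the 5029 genes. For 51 members the highest KM71-ScFlo1-LpDLDH library was at most 0.25 of the lowest KM71-LpDLDH library, which held for 1.05% of the genes. In a fit across all genes with edgeR's quasi-likelihood test, each of the 72 was called lower, as were 7.99% of the genes tested. A call needed more than a 2-fold change and a p, adjusted after Benjamini and Hochberg, under 0.05. The adjusted p alone was passed on the lower side by 31.5% of the genes. With a fold change above 4 the calls were also 72, beside 1.77% of the genes. The median log2 fold change was -2.60 over the members and 0.02 over all genes. The rule read the same contrast, so these counts describe the selection and carry no further evidence.

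**Figure D3:**
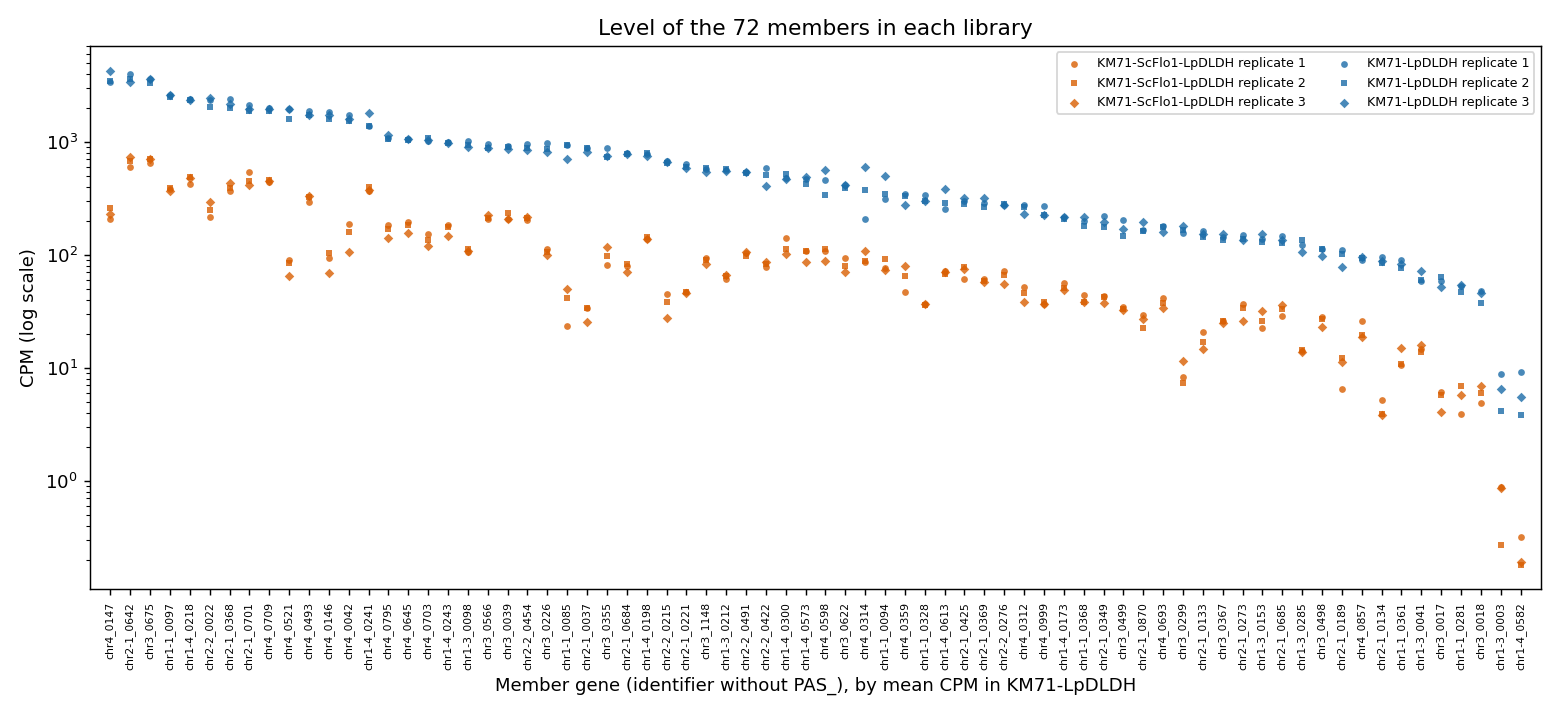
Level of each of the 72 members in each of the 6 libraries, in CPM on a log scale, ordered by mean level in KM71-LpDLDH. Orange points are the 3 libraries of KM71-ScFlo1-LpDLDH and blue points the 3 of KM71-LpDLDH. The points of the strains do not overlap for any member. The members were chosen by a gap in these same libraries, and 27.6% of the 5029 genes were also lower without overlap. The members span levels from 6.16 to 3711 CPM in KM71-LpDLDH.

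The member with the lowest ratio was PAS_chr2-1_0037. It had 34.1, 33.6 and 25.5 CPM in KM71-ScFlo1-LpDLDH, against 881, 876 and 814 CPM in KM71-LpDLDH. The libraries of each strain lay close together and far from the other strain. Its residual level was 3.63%, and the fitted log2 fold change was -4.89. The SE of the difference over replicate log2 CPM was 0.11. PAS_chr4_0521 had 90.7, 84.4 and 65.3 CPM in KM71-ScFlo1-LpDLDH, against 1965, 1606 and 1948 CPM in KM71-LpDLDH. It combined a residual level of 4.35% with a high control level, 1840 CPM on average. PAS_chr1-1_0085 had a residual level of 4.43% but a wider spread, with 23.3, 41.3 and 49.4 CPM in KM71-ScFlo1-LpDLDH and 934, 942 and 699 CPM in KM71-LpDLDH. Replicate 1 of KM71-ScFlo1-LpDLDH was the lowest for this gene.

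PAS_chr2-2_0215 had 45.0, 38.2 and 27.4 CPM in KM71-ScFlo1-LpDLDH, against 673, 656 and 659 CPM in KM71-LpDLDH. PAS_chr3_0299 had 8.24, 7.39 and 11.5 CPM in KM71-ScFlo1-LpDLDH, against 155, 165 and 179 CPM in KM71-LpDLDH. Their residual levels were close, 5.57% and 5.43%, although the control level of PAS_chr2-2_0215 was 663 CPM and that of PAS_chr3_0299 was 166 CPM. PAS_chr2-1_0221 was among the most even of these genes. It had 47.1, 47.1 and 45.9 CPM in KM71-ScFlo1-LpDLDH, against 633, 595 and 592 CPM in KM71-LpDLDH, and a residual level of 7.70%. PAS_chr4_0042 differed more between cultures, with 186, 158 and 105 CPM in KM71-ScFlo1-LpDLDH, against 1719, 1532 and 1605 CPM in KM71-LpDLDH. Its residual level was 9.26%. The remaining members of the 10 lowest ratios (PAS_chr4_0146, PAS_chr4_0147 and PAS_chr2-1_0134) stood in pairs of consecutive numbers and are described with these.

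The members most abundant in the control strain stood on both sides of the median residual level. PAS_chr2-1_0642 had 593, 680 and 740 CPM in KM71-ScFlo1-LpDLDH, against 3990, 3604 and 3365 CPM in KM71-LpDLDH. PAS_chr3_0675 had 645, 705 and 708 CPM in KM71-ScFlo1-LpDLDH, against 3575, 3288 and 3606 CPM in KM71-LpDLDH. These were the only members above 500 CPM on average in KM71-ScFlo1-LpDLDH (2 of 72, against 34 of 72 in KM71-LpDLDH), with residual levels of 18.4% and 19.7%. PAS_chr1-1_0097 had 384, 391 and 371 CPM in KM71-ScFlo1-LpDLDH, against 2594, 2510 and 2605 CPM in KM71-LpDLDH. PAS_chr1-4_0218 had 426, 485 and 475 CPM in KM71-ScFlo1-LpDLDH, against 2392, 2333 and 2363 CPM in KM71-LpDLDH. Both were even across cultures, and their residual levels were 14.9% and 19.6%. PAS_chr2-2_0022 kept less, 11.1%, with 214, 249 and 293 CPM in KM71-ScFlo1-LpDLDH and 2331, 2046 and 2449 CPM in KM71-LpDLDH. PAS_chr2-1_0701 and PAS_chr4_0709 kept more, 23.5% and 23.2%. PAS_chr2-1_0701 averaged 467 ± 63.6 CPM in KM71-ScFlo1-LpDLDH and 1990 ± 119 CPM in KM71-LpDLDH (SD, n = 3 each). PAS_chr4_0709 averaged 452 ± 11.5 CPM in KM71-ScFlo1-LpDLDH and 1950 ± 68.1 CPM in KM71-LpDLDH (SD, n = 3 each). The other members of the 10 highest control levels were PAS_chr4_0147, PAS_chr2-1_0368 and PAS_chr4_0521.

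At the low end, 2 members rested on few reads. PAS_chr1-4_0582 had 4, 2 and 2 reads in KM71-ScFlo1-LpDLDH, against 111, 49 and 68 reads in KM71-LpDLDH. Scaled to the library totals, its summed reads were 26.0-fold higher in KM71-LpDLDH, with an exact binomial 95% interval of 13.0 to 60.9 that covers counting error only. PAS_chr1-3_0003 had 11, 3 and 9 reads in KM71-ScFlo1-LpDLDH, against 106, 53 and 80 reads in KM71-LpDLDH, and a ratio of 9.48 (6.17 to 15.2). With 2 CPM added in place of 0.5, the ratios of mean levels were 0.273 for PAS_chr1-4_0582 and 0.316 for PAS_chr1-3_0003, both outside the threshold. The next lowest, PAS_chr2-1_0134, PAS_chr3_0017 and PAS_chr1-1_0281, had between 148 and 185 reads in the KM71-ScFlo1-LpDLDH libraries together. PAS_chr1-1_0281 had 49, 76 and 60 reads in KM71-ScFlo1-LpDLDH, against 644, 603 and 666 reads in KM71-LpDLDH, a ratio of 9.43 (8.11 to 11.0). The same reads chose these genes, so the intervals are descriptions and no test of the difference. Every member had reads in every library.

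At the threshold, the members just inside were PAS_chr1-4_0173, PAS_chr3_0498 and PAS_chr1-4_0241, with ratios of 0.245, 0.245 and 0.248. The genes just outside were PAS_chr1-4_0144, PAS_chr1-3_0005 and PAS_chr4_0613, with ratios of 0.251, 0.254 and 0.257. PAS_chr1-4_0241 averaged 379 ± 17.1 CPM in KM71-ScFlo1-LpDLDH and 1528 ± 234 CPM in KM71-LpDLDH, while PAS_chr4_0613 averaged 457 CPM in KM71-ScFlo1-LpDLDH and 1779 CPM in KM71-LpDLDH. The step from the last member to the first gene outside was small beside the spread between cultures. When the rule was applied with each library left out in turn, 60 of the 72 members met it every time and 12 failed it at least once.

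The rule was also applied without 1 library, and the level in that library was compared with the mean of the other strain. The library left out had no part in the choice, but the other strain's mean did, so these ratios still draw in part on values that chose the genes. Without replicate 1, 2 or 3 of KM71-ScFlo1-LpDLDH the rule chose 73, 74 and 68 genes. In the library left out, 62, 68 and 62 of these were at or below 0.25, and all 73, 74 and 68 were at or below 0.5. Without replicate 1, 2 or 3 of KM71-LpDLDH it chose 71, 72 and 68 genes, of which 64, 62 and 65 were at or below 0.25 in the library left out. All of these were at or below 0.5 apart from PAS_chr3_0095, which was at 0.606 in replicate 1 and is named after its value was seen. The median ratio in the library left out was between 0.167 and 0.183. The 6 sets share most of their libraries and are not independent. Between 67 and 72 of the genes in each set were members. The counts are therefore no separate evidence for the difference between the strains.

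The spread between cultures was larger in the flocculating strain for most members. The median coefficient of variation over 3 libraries was 11.6% in KM71-ScFlo1-LpDLDH and 7.03% in KM71-LpDLDH over the members, and 8.95% in KM71-ScFlo1-LpDLDH and 8.17% in KM71-LpDLDH over all 5029 genes. It was larger in KM71-ScFlo1-LpDLDH for 65.3% of the members and 53.5% of all genes. Above 20% were 12 members in KM71-ScFlo1-LpDLDH and 6 in KM71-LpDLDH, beside 8.79% of all genes in KM71-ScFlo1-LpDLDH and 6.68% in KM71-LpDLDH. Members have fewer reads in KM71-ScFlo1-LpDLDH, and the part of counting error in this difference was not tested.

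In KM71-ScFlo1-LpDLDH the largest coefficients were 51.8% for PAS_chr1-3_0003, 35.2% for PAS_chr1-1_0085 and 33.5% for PAS_chr1-4_0582. In KM71-LpDLDH they were 50.2% for PAS_chr4_0314, 44.1% for PAS_chr1-4_0582 and 35.6% for PAS_chr1-3_0003. PAS_chr1-3_0003 and PAS_chr1-4_0582 are the members with the fewest reads, but PAS_chr4_0314 is not. It had 85.6, 88.0 and 109 CPM in KM71-ScFlo1-LpDLDH, against 208, 374 and 603 CPM in KM71-LpDLDH. Its KM71-LpDLDH libraries spanned a wide range without reaching those of KM71-ScFlo1-LpDLDH. Without replicate 3 of KM71-LpDLDH its ratio was 0.324, which is outside the threshold, and without replicate 1 it was 0.193.

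The members were not all highest or lowest in the same library of a strain. In KM71-ScFlo1-LpDLDH, 35 members were highest in replicate 1, 17 in replicate 2 and 20 in replicate 3, beside 55.2%, 19.5% and 25.2% of all genes. In KM71-LpDLDH, 40 members were highest in replicate 1, 9 in replicate 2 and 23 in replicate 3, beside 29.3%, 48.6% and 22.1% of all genes. Replicate 2 of KM71-LpDLDH was the lowest of its strain for 40 of the 72 members but for 21.0% of all genes. It also had the lowest share of reads on the members, 5.43%, which was still far above the highest share in KM71-ScFlo1-LpDLDH, 0.904%.

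By chromosome prefix the members were spread widely. They numbered 7 of 480 genes under chr1-1, 6 of 290 under chr1-3, 9 of 677 under chr1-4 and 15 of 858 under chr2-1. There were 6 of 469 under chr2-2, 13 of 1177 under chr3 and 16 of 946 under chr4. The share lay between 1.10% and 2.07% under these prefixes, against 1.43% over all genes. No gene under the 4 smaller prefixes was a member. These hold few genes, 69 under FragB, 25 under FragD, 18 under c121 and 20 under c131, so few members would be found there at the share over all genes.

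Consecutive numbers were found for 12 members (16.7%), in 6 pairs, and no run was longer than 2. Of the 4957 other genes, 119 (2.40%) had a member numbered next to them. Among the genes at least 4-fold higher in KM71-ScFlo1-LpDLDH, 8 (8.89%) stood in 4 such runs, also none longer than 2. Numbers follow the naming of the loci, and positions were not analysed here, so a step of 1 need not mean that genes lie side by side. Whether reads were counted by strand is not given in the sources used here, so reads of genes that overlap could not be told apart.

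The pair with the highest levels was PAS_chr4_0146 and PAS_chr4_0147, and PAS_chr4_0147 was the most abundant member in the control strain. PAS_chr4_0146 had 93.0, 104 and 69.0 CPM in KM71-ScFlo1-LpDLDH, against 1852, 1602 and 1712 CPM in KM71-LpDLDH. PAS_chr4_0147 had 206, 260 and 232 CPM in KM71-ScFlo1-LpDLDH, against 3401, 3460 and 4271 CPM in KM71-LpDLDH. The residual levels were 5.16% and 6.26%, and the count ratio of PAS_chr4_0146 to PAS_chr4_0147 overlapped between strains, at 0.298 to 0.451 in KM71-ScFlo1-LpDLDH and 0.401 to 0.544 in KM71-LpDLDH. PAS_chr4_0148 kept 51.0% and was called lower, while PAS_chr4_0145 was at 107%.

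In the pair PAS_chr2-1_0133 and PAS_chr2-1_0134 the loss was unequal. PAS_chr2-1_0133 had 20.8, 16.9 and 14.7 CPM in KM71-ScFlo1-LpDLDH, against 161, 145 and 153 CPM in KM71-LpDLDH. PAS_chr2-1_0134 had 5.20, 3.88 and 3.85 CPM in KM71-ScFlo1-LpDLDH, against 95.1, 84.1 and 87.6 CPM in KM71-LpDLDH. The count ratio of PAS_chr2-1_0133 to PAS_chr2-1_0134 was 3.83 to 4.37 in KM71-ScFlo1-LpDLDH and 1.69 to 1.75 in KM71-LpDLDH, so the strains did not overlap. The genes on either side were not lower. PAS_chr2-1_0132 was at 146% of its control level and PAS_chr2-1_0135 at 231%, and PAS_chr2-1_0135 was called higher.

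PAS_chr2-1_0684 and PAS_chr2-1_0685 were also unequal, with residual levels of 9.91% and 24.0%. PAS_chr2-1_0684 had 80.4, 82.9 and 70.9 CPM in KM71-ScFlo1-LpDLDH, against 802, 780 and 781 CPM in KM71-LpDLDH. PAS_chr2-1_0685 had 28.5, 33.3 and 36.1 CPM in KM71-ScFlo1-LpDLDH, against 148, 126 and 135 CPM in KM71-LpDLDH. Their count ratio was 1.96 to 2.82 in KM71-ScFlo1-LpDLDH and 5.42 to 6.19 in KM71-LpDLDH. The next number, PAS_chr2-1_0686, kept 29.1% and was called lower, while PAS_chr2-1_0683 kept 77.6%. Here the lower level ran over 3 numbers, graded from PAS_chr2-1_0684 to PAS_chr2-1_0686.

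PAS_chr2-1_0368 and PAS_chr2-1_0369 kept similar shares, 18.1% and 20.3%, at very different levels. PAS_chr2-1_0368 had 371, 389 and 433 CPM in KM71-ScFlo1-LpDLDH, against 2417, 2004 and 2181 CPM in KM71-LpDLDH. PAS_chr2-1_0369 had 60.5, 59.2 and 57.5 CPM in KM71-ScFlo1-LpDLDH, against 289, 267 and 318 CPM in KM71-LpDLDH. Their neighbours PAS_chr2-1_0367 and PAS_chr2-1_0370 kept 62.4% and 81.2%. PAS_chr3_0017 and PAS_chr3_0018 were the weakest pair, with 58.2 ± 5.73 and 43.6 ± 5.62 CPM in KM71-LpDLDH (SD, n = 3), and kept 9.14% and 13.5%. PAS_chr3_0016 and PAS_chr3_0019 stood at 108% and 125%. PAS_chr3_0498 and PAS_chr3_0499 kept 24.2% and 19.1%, beside 85.8% and 133% for PAS_chr3_0497 and PAS_chr3_0500. In 4 of the 6 pairs no gene numbered directly before or after was called lower.

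**Figure D4:**
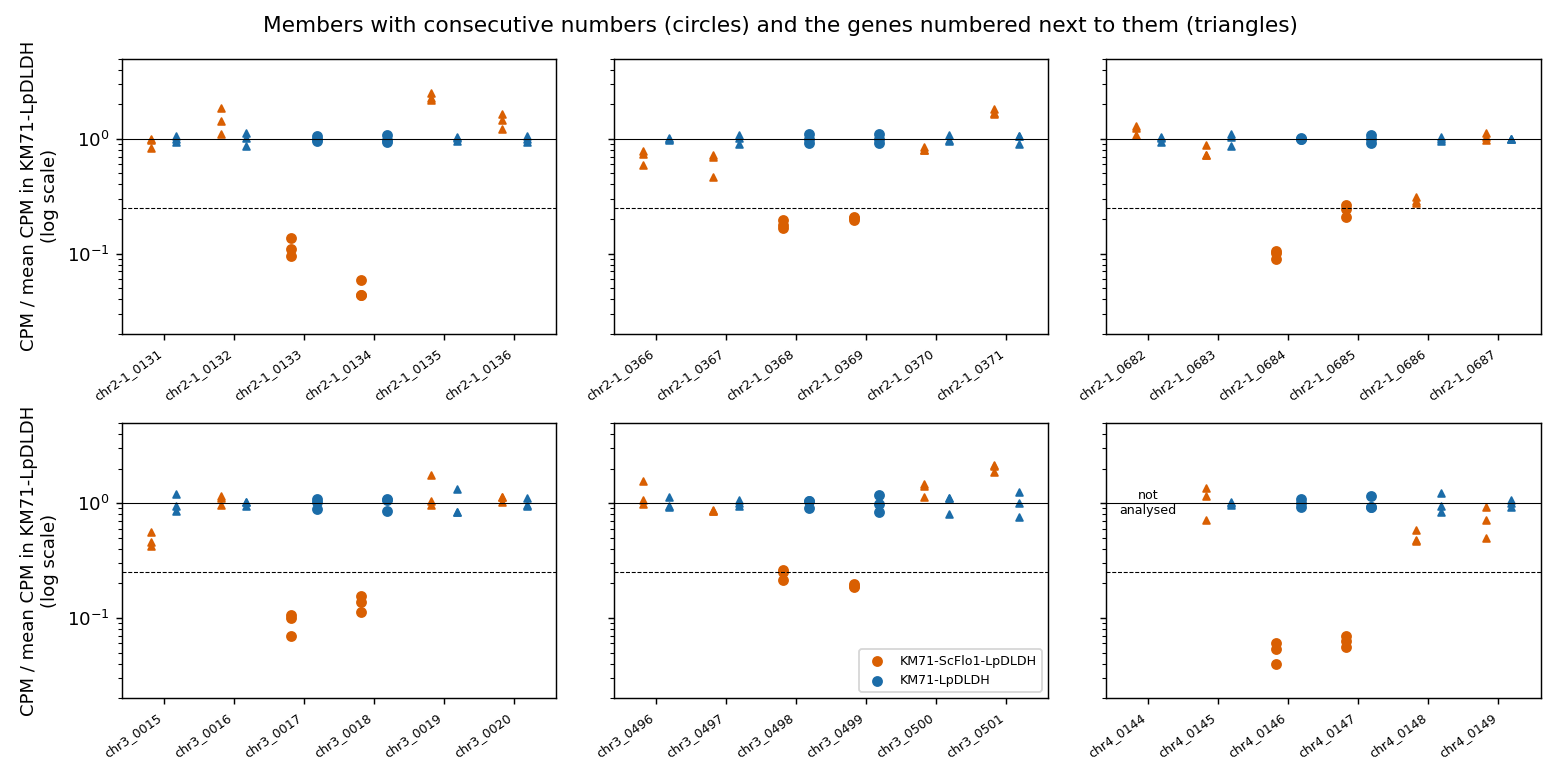
Level of the 6 pairs of members with consecutive numbers (circles) and of the 2 genes numbered before and after each (triangles), as CPM in each library divided by the mean CPM of that gene in KM71-LpDLDH, on a log scale. Orange is KM71-ScFlo1-LpDLDH and blue KM71-LpDLDH, and the dashed line is a ratio of 0.25. Directly next to a pair, PAS_chr2-1_0686 (29.1%), PAS_chr4_0148 (51.0%) and PAS_chr2-1_0367 (62.4%) are the lowest relative to their control level, and PAS_chr3_0015 (47.9%) is low a number further away.

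With numbers up to 2 apart there were 8 runs with 16 members. The added pairs were PAS_chr1-4_0241 with PAS_chr1-4_0243 and PAS_chr4_0312 with PAS_chr4_0314. PAS_chr1-4_0242, which stands between the first of these, was called higher with a log2 fold change of 1.04. At a ratio of at most 0.5, 333 genes gave 46 runs of up to 3 genes, and 24 of these runs held a member. Runs of 3 with a member were PAS_chr1-3_0003 to PAS_chr1-3_0005, PAS_chr1-4_0298 to PAS_chr1-4_0300, PAS_chr2-1_0347 to PAS_chr2-1_0349, PAS_chr2-1_0684 to PAS_chr2-1_0686 and PAS_chr3_0354 to PAS_chr3_0356. In the last of these PAS_chr3_0355 kept 12.5%, with PAS_chr3_0354 at 26.7% and PAS_chr3_0356 at 46.2% on either side.

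More of the genes numbered next to the members were called lower than higher. Of the 119, 25 were called lower (21.0%) and 8 higher (6.72%), beside 7.99% lower and 8.41% higher of all 5029 tested genes, and their median log2 fold change was -0.28 against 0.02. For the 159 genes numbered next to a gene at least 4-fold higher in KM71-ScFlo1-LpDLDH, the counts were 8 lower (5.03%) and 22 higher (13.8%), with a median of 0.13. The largest falls next to a member were those of PAS_chr1-4_0581, with a log2 fold change of -2.07 ± 0.20 (SE), and PAS_chr3_0354, with -2.01 ± 0.17. These counts were not tested against chance.

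**Figure D5:**
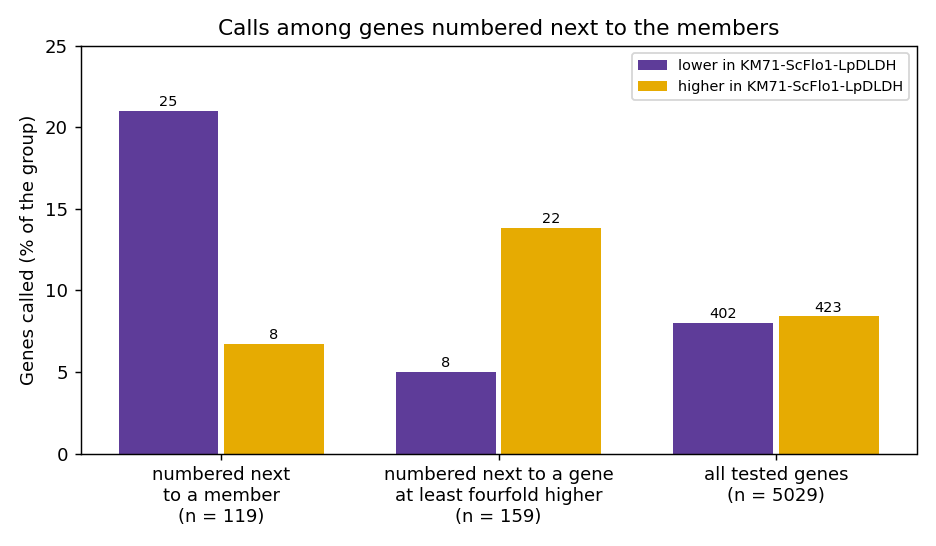
Percentage of genes called lower (purple) or higher (yellow) in KM71-ScFlo1-LpDLDH by edgeR's quasi-likelihood test, with the number of genes above each bar. The groups are the 119 genes numbered next to a member, the 159 numbered next to a gene at least 4-fold higher and all 5029 tested genes. Lower calls make up 21.0%, 5.03% and 7.99% of these groups.

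Counted by member, 34 of the 72 had another member or a gene called lower numbered next to them, and 3 had one on both sides (PAS_chr2-1_0685, PAS_chr3_0355 and PAS_chr4_0147). The 34 are 47.2% of the members. A gene called lower was numbered next to 14.1% of the 4957 other genes, and next to 32.1% of the 330 genes called lower that are not members, so such neighbours were frequent among lower genes in general. A gene called higher stood next to 9 members (12.5%), beside 15.3% of the other genes. No called gene and no member stood next to 33 members (45.8%), and no called gene next to 71.4% of the other genes. PAS_chr1-1_0281 stood beside PAS_chr1-1_0282, which had a log2 fold change of 2.34 ± 0.16 (SE), the largest rise among these neighbours. In 4 cases a member lay between a lower gene or a member and a higher gene. One was PAS_chr2-1_0134, described above. PAS_chr2-1_0037 lay between PAS_chr2-1_0036 (log2 fold change -1.02) and PAS_chr2-1_0038 (1.13). PAS_chr4_0042 lay between PAS_chr4_0041 (1.98) and PAS_chr4_0043 (-1.40), and PAS_chr4_0521 between PAS_chr4_0520 (1.17) and PAS_chr4_0522 (-1.37).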

How the data were processed

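The authors deposited whole-number read counts of 5040 genes in the 6 libraries as a single table. Per the methods, the 150 nt reads were cleaned with fastp and aligned by HISAT2 to the GS115 genome of P. pastoris before HTSeq-count assigned them to genes. Tool versions and strand settings are not given there. The name of the table calls it normalized, but whole values and differing library totals led to its use as raw counts. The number of table columns of no sample was 0. Columns were assigned to strains by the letters and replicate number of their names.

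CPM was computed from library totals. Calls across genes used edgeR 4.0.16 (R 4.3.3) with TMM scaling and the quasi-likelihood test on the 5029 genes that averaged 10 reads or more, with thresholds of 0.05 on the adjusted p and 2 on the fold change. Standard errors were taken over replicate log2 CPM (prior count 2), and those beside fold changes are not errors of the fitted coefficients. DESeq2 1.42.0 and limma 3.58.1 were alternatives, with other pseudocounts, filters, scalings, thresholds, a replicate block and each library left out. Members and lists were chosen with earlier results of these data known. Named were the 10 highest and 10 lowest-ratio members, the 5 with fewest reads, members in runs with the genes beside them, the 3 genes on either side of the threshold and the 3 most variable members of each strain. Other genes were named after their values were seen. Groups by annotation were planned but not formed, since 0 identifiers matched a gene table of another assembly. At totals of 10386352 to 12767753 reads per library, counting error is small for all but the weakest members. Nothing beyond triplicate cultures is stated on the replicates. The p-values set the strain difference against the spread between these cultures. Whether that spread includes separate transformants of a strain is not known.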

Additional observations from a re-analysis of the deposited data

How the results depend on the processing

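The rule gave 73 members with a pseudocount of 0.1 CPM, 66 with 2 CPM, 70 with at least 600 summed reads, 82 with TMM scaling, 83 with DESeq2 size factors, 68 with a ratio of medians and 50 with the highest KM71-ScFlo1-LpDLDH over the lowest KM71-LpDLDH library. It gave 22 where at least an 8-fold lower level was required and 333 at a ratio of at most 0.5. With TMM scaling and DESeq2 size factors, the genes so chosen summed to 6.50% and 6.56% of the fixed library size in KM71-LpDLDH. These values come from rescaled CPM and are not shares of reads. The share of KM71-LpDLDH reads on the chosen genes was 5.44% with medians, 4.61% with highest over lowest, 1.84% for 8-fold and 16.6% at 0.5. With each library left out, the members numbered 68 to 74 and the share was 5.41% to 5.75%, lowest without replicate 3 of KM71-LpDLDH. At 0.5, 99 genes stood in runs.

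A fold change above 4 left 89 genes lower and 77 higher, with 2 neighbours of members lower and 1 higher. Leaving out a library gave 392 to 419 lower and 402 to 467 higher genes, beside 402 and 423, with 23 to 26 neighbours lower and 6 to 8 higher. DESeq2 called 408 lower and 408 higher. With total-count scaling, which moved the median log2 ratio of all genes to 0.13, edgeR called 340 lower and 522 higher, with 20 neighbours lower and 11 higher. With limma they were 336 and 515, with 20 and 10. All 72 members were called lower under each of these settings. Where a mean of 50 reads was required, 70 members were tested and all 70 were called lower. These calls follow from the selection. With the replicate block, 404 genes were lower and 425 higher, with 25 neighbours lower and 8 higher. Same-numbered libraries correlated at -0.14, 0.05 and 0.11, beside -0.26 to 0.29 for libraries of other numbers. Whether same-numbered cultures share a day or preparation is not given, and so few libraries cannot decide it.

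Of 288 ratios of the 32 named members under alternatives, 281 stayed within 1 SD, taken from the spread between cultures. Of the 7 beyond it, 4 came with TMM scaling and 0 with a library left out. Leaving out a library can hardly move a ratio by that SD, so the count does not measure stability. Of the named members, PAS_chr1-4_0173, PAS_chr1-4_0241, PAS_chr2-1_0685, PAS_chr3_0498 and PAS_chr4_0314 were over 0.25 with a library left out. Of all 72 members, 12 failed the rule with at least 1 library left out. The causes were not tested. The alternatives for neighbours were chosen after seeing the data. Depth limits PAS_chr1-4_0582 and PAS_chr1-3_0003, with 8 and 23 reads over the KM71-ScFlo1-LpDLDH libraries.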
